A study of Monodelphis domestica and Mus musculus with 2 samples.

Results

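AMPA receptors are the ion channels that carry most fast excitatory transmission in the cerebral cortex. Each channel is assembled from GluA subunits encoded by Gria1, Gria2, Gria3 and Gria4, and the mix of subunits sets how the channel opens, traffics and passes calcium. GluA2 keeps calcium out once its RNA has been edited, GluA1 is recruited to synapses during activity-dependent plasticity, GluA3 pairs mainly with GluA2, and GluA4 gives fast currents and is best known from fast-spiking GABAergic interneurons and from developing cortex.

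Transcripts of these 4 genes were followed in primary visual cortex (V1) of the gray short-tailed opossum, a marsupial, and of the mouse. The measurement was Stereo-seq, in which a tissue section is laid on a chip of barcoded spots and the captured RNA molecules are counted as UMIs (unique molecular identifiers) and summed over segmented cells. The opossum section came from 1 male Monodelphis domestica of about 6 months, and the mouse section from 1 male wild-type C57BL/6J of about postnatal day 40, both cut at 10 µm from a block of coronal slices that held both hemispheres. Species, age, RNA quality and genome annotation go together in these 2 samples and cannot be told apart, and with 1 animal per species no difference was tested.

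The 4 genes were chosen by symbol, and all 4 were found in each species, among 30613 features in the opossum and 61317 in the mouse. They were measured in the V1 cells that passed the authors' filter, 4806 of 80369 segmented cells in the opossum and 9127 of 120239 in the mouse. The opossum cells held 6933475 UMIs with a median of 1326 per cell and lay in 3 V1 regions whose medians ran from 1048 to 1503. The mouse cells held 12522687 UMIs with a median of 1305 and lay in 4 regions whose medians ran from 1259 to 1343. Regions of 1 section share an animal and a chip, so values per region are given as a description of how far a value holds across the section. No cell barcode was shared between the species.

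A level below is the number of UMIs of a gene per 10000 UMIs of the cells named, with an exact Poisson interval at 95%, and a share is the part of all UMIs of the 4 genes that 1 of them took, with an exact Clopper-Pearson interval. These intervals, and the exact conditional intervals of ratios, cover counting error only. UMIs were not divided by transcript length, so an order among the 4 genes is an order of captured molecules. The subclass labels were assigned by the study from the expression of the same cells, by nearest neighbors in a snRNA-seq atlas of the same species, in rounds of falling stringency. Levels by subclass are therefore a description, whereas depth in the cortex did not use the labels except to find the axis and which end was the top. Of the fixed marker genes, 21 of 23 measured in the opossum and 25 of 27 in the mouse were higher in their own cell type than elsewhere, with median folds of 4.21 and 2.98. The exceptions were SLC17A6 and C1QA in the opossum, the latter with 0 UMIs in cells labelled microglia, and Slc17a7 and Neurod6 in the mouse, where Slc17a7 had a level of 10.4 in glutamatergic and 10.5 in other subclasses. A UMI assigned to a segmented cell thus need not have come from that cell, and the levels in oligodendrocytes (OD) are given as a reference for transcripts of neurons. This reference is not free of neurons by the study's separate class label. That label was glutamatergic in 331 of the 565 opossum OD cells and in 104 of the 588 mouse OD cells.

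In the mouse annotation of GRCm39, Gria1 (ENSMUSG00000020524) lies on chromosome 11 from 56902153 to 57221080 on the plus strand and Gria2 (ENSMUSG00000033981) on chromosome 3 from 80588757 to 80710538 on the minus strand. Gria3 (ENSMUSG00000001986) lies on chromosome X from 40489476 to 40767490 on the plus strand and Gria4 (ENSMUSG00000025892) on chromosome 9 from 4417604 to 4796326 on the minus strand. All are protein-coding, and the lncRNA genes annotated across them on the opposite strand each held between 6 and 17 UMIs in V1 cells, against 2512 or more for each Gria gene. The opossum genes are GRIA1 (ENSMODG00000008900), GRIA2 (ENSMODG00000001807), GRIA3 (ENSMODG00000015003) and GRIA4 (ENSMODG00000014746).

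GRIA2 was the most captured of the 4 genes in both species, and the gene in the next place was GRIA4 in the opossum and Gria1 in the mouse. Over all V1 cells of the opossum, GRIA2 had a level of 8.49 (8.27 to 8.71) and GRIA4 one of 4.26 (4.10 to 4.41), followed by GRIA3 at 2.14 (2.04 to 2.26) and GRIA1 at 2.09 (1.98 to 2.20). In the mouse, Gria2 was at 7.22, Gria1 at 4.58, Gria3 at 4.38 and Gria4 at 2.01. As shares, GRIA4 took 25.1% (24.3 to 25.9) of the UMIs of the 4 genes in the opossum and Gria4 11.0% in the mouse, whereas GRIA1 took 12.3% and Gria1 25.2%. GRIA3 took 12.6% and Gria3 24.1%, and GRIA2 took 49.98% and Gria2 39.7%.

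In each of the 3 opossum regions GRIA2 was the most captured gene and GRIA4 the next, and in each of the 4 mouse regions Gria2 was the most and Gria4 the least captured, while Gria3 stood above Gria1 in mouse region 2 and below it in the others. GRIA4 stood at 4.67, 4.24 and 3.46 in the 3 opossum regions and Gria4 at 2.13, 2.03, 1.84 and 1.93 in the 4 mouse regions. GRIA1 was at 2.20, 1.97 and 2.13 in the opossum, and Gria1 at 4.97, 4.25, 4.33 and 4.41 in the mouse. The ranges over regions of the 2 sections did not overlap for either gene, with GRIA4 higher in every opossum region and Gria1 higher in every mouse region. GRIA3 was at 2.23, 2.18 and 1.91, below all 4 mouse regions of Gria3, at 4.50, 4.61, 4.24 and 4.14. GRIA2 was at 9.03, 8.16 and 8.07, above all 4 mouse regions of Gria2, at 7.24, 7.22, 7.02 and 7.38. Levels of a gene are not on a common scale in the 2 species, and regions of the same animal are not replicates. The comparisons of ranges above therefore describe these 2 sections and do not show a difference between the species.

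**Figure D1:**
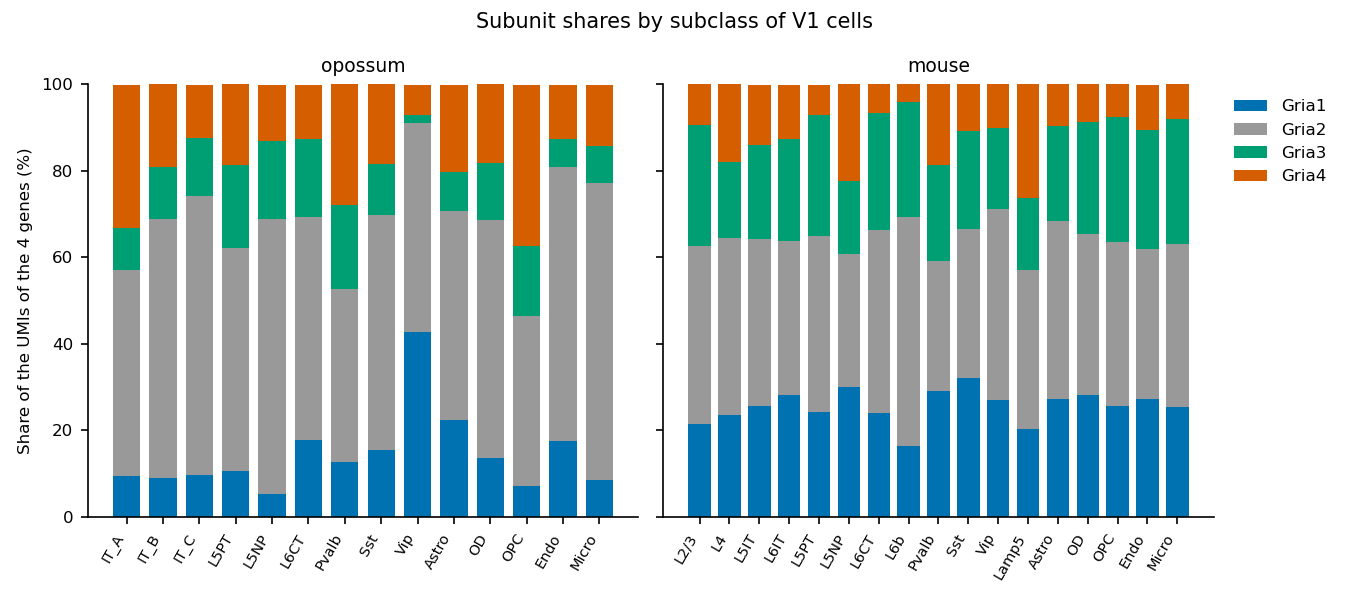
Share of the UMIs of the 4 AMPA receptor subunit genes taken by each gene (percent, stacked bars from 0 to 100) by subclass of V1 cells in the opossum and the mouse. GRIA4 takes 33.2% in opossum IT_A and 12.4% in IT_C, and Gria4 takes 17.8% in mouse L4 and 9.36% in L2/3.

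Among opossum subclasses, GRIA4 was highest in IT_A, the intratelencephalic (IT) neurons that fill the upper cortex, and in oligodendrocyte precursors (OPC). In the 1596 IT_A cells its level was 7.38 (7.03 to 7.74; 1718 UMIs), with 7.52, 7.85 and 5.97 in the 3 regions. In IT_B, the IT subclass of the middle depths, it was 2.59 (1.95 to 3.38; 55 UMIs), with 2.72, 2.33 and 3.01 by region. In IT_C, the deeper IT subclass, it was 1.63 (1.26 to 2.07; 67 UMIs), with 2.23, 1.23 and 1.33 by region. Every region of IT_A lay above every region of both other IT subclasses. At least 1 GRIA4 UMI was found in 40.04% of IT_A cells, 17.2% of IT_C cells and 18.9% of OD, whose median UMIs were 1365, 1456 and 1077. With each cell thinned to 300 UMIs and 52, 15 and 19 shallower cells left out, the shares were 16.1% (14.3 to 17.99), 6.07% (3.44 to 9.82) and 5.86% (4.04 to 8.17), so that the share in IT_C was at the level of OD.

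The ratio of GRIA4 levels was 4.53 (3.55 to 5.87) for IT_A over IT_C, with 3.37, 6.40 and 4.51 in the regions, and 2.85 (2.18 to 3.79) for IT_A over IT_B, with 2.77, 3.37 and 1.98. In cells labelled in the first round the same ratios were 14.4 and 5.54. As the mean of the levels of single cells they were 3.81 and 2.06. For IT_A over IT_C, GRIA4 stood in place 7 from the highest of 3294 genes with 200 or more UMIs. Of the 4 Gria genes, 2 were past 1.5-fold in that comparison, GRIA4 and GRIA1, beside 13.1% of those genes. For IT_A over IT_B it was the same 2 genes, beside 23.8% of 3060 genes, but in first-round cells GRIA1 fell short at 1.49 and GRIA3 was past it at 1.93. GRIA1 had ratios of 1.67 (1.25 to 2.26) and 1.72 (1.16 to 2.66), the latter on 26 UMIs in IT_B. GRIA2 ratios were 1.25 and 1.30, and those of GRIA3 were 1.20 and 1.29.

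The GRIA4 level in IT_A moved with the stringency of the label and with depth. The 493 IT_A cells labelled in the first round, at a median depth of 106 µm, had a GRIA4 level of 12.3 (11.6 to 13.1) and a GRIA4 share of 41.5%. The 896 cells of round 2, at 219 µm, had a level of 4.97, and the 207 cells of round 3, at 330 µm, one of 3.36 (2.71 to 4.14). GRIA4 was thus lower in each later round, whose cells also lay deeper, yet the lowest of these levels was still above that of IT_C as a whole. GRIA4 itself may have been among the genes on which the labels rest, and its part in them was not tested. In L6CT, the corticothalamic neurons of layer 6, GRIA4 was at 2.08, 1.98 and 2.00 over the 3 rounds.

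IT_A also held nearest-neighbor cluster labels. Cluster 1 (571 cells) had a GRIA4 level of 9.12 (8.48 to 9.79), with 9.39, 9.41 and 7.84 in the regions, and cluster 3 (641 cells) one of 7.70. IT_A cells with the labels of clusters 4, 5 and 6, which lay deeper at medians of 385, 363 and 362 µm, had GRIA4 levels of 2.88, 4.73 and 4.87. In cluster 1 GRIA2 was at 11.3, GRIA1 at 2.41 and GRIA3 at 2.16.

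In opossum OPC, GRIA4 had a level of 6.57 (5.28 to 8.07; 90 UMIs in 100 cells), with 6.43, 5.56 and 8.41 in the regions, and a share of 37.3% (31.2 to 43.8). The interval overlapped that of IT_A and not that of Pvalb, the next subclass in order. Of these 100 cells, 70 had a class label of glutamatergic neurons. Their median depth was 353 µm, and PDGFRA, a defining OPC marker, was 22.8-fold higher in them than in other cells, on 41 UMIs. CSPG4, the other OPC marker listed, was 1.15-fold higher on 1 UMI. In mouse OPC, Gria4 was at 1.29 (0.892 to 1.80; 34 UMIs in 187 cells), with 1.26, 1.23, 0.395 and 2.38 in the regions. The opossum regions of OPC all lay above the mouse regions, on levels that are not on 1 scale in the 2 species.

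In Pvalb cells, the fast-spiking interneurons in which GluA4 is best known, GRIA4 was at 4.32 (3.79 to 4.91) in the opossum, with 5.80, 3.64 and 2.75 by region, and Gria4 at 3.42 (2.76 to 4.19) in the mouse, with 5.07, 2.99, 1.94 and 1.39. The regions of 1 species therefore spread more widely than the species differed, and their ranges overlapped. Class labels of glutamatergic neurons were held by 142 of the 354 opossum Pvalb cells and by 21 of the 174 mouse Pvalb cells. PVALB itself was not measured in the opossum, so the label was not checked there by its own marker. In the mouse, Pvalb was 3.81-fold higher in these cells than elsewhere, on 152 UMIs. The remaining opossum levels of GRIA4 were 3.73 in L5PT, the pyramidal tract neurons of layer 5, 2.81 in Sst interneurons, 2.77 in astrocytes, 2.10 in OD, 2.03 in L6CT, 1.46 in the near-projecting L5NP, 1.39 in microglia, 1.18 in endothelial cells and 0.810 in Vip interneurons, the last on 4 UMIs. In the order of the 14 subclasses, 12 of 13 neighboring pairs had overlapping intervals, the exception being OPC and Pvalb.

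**Figure D2:**
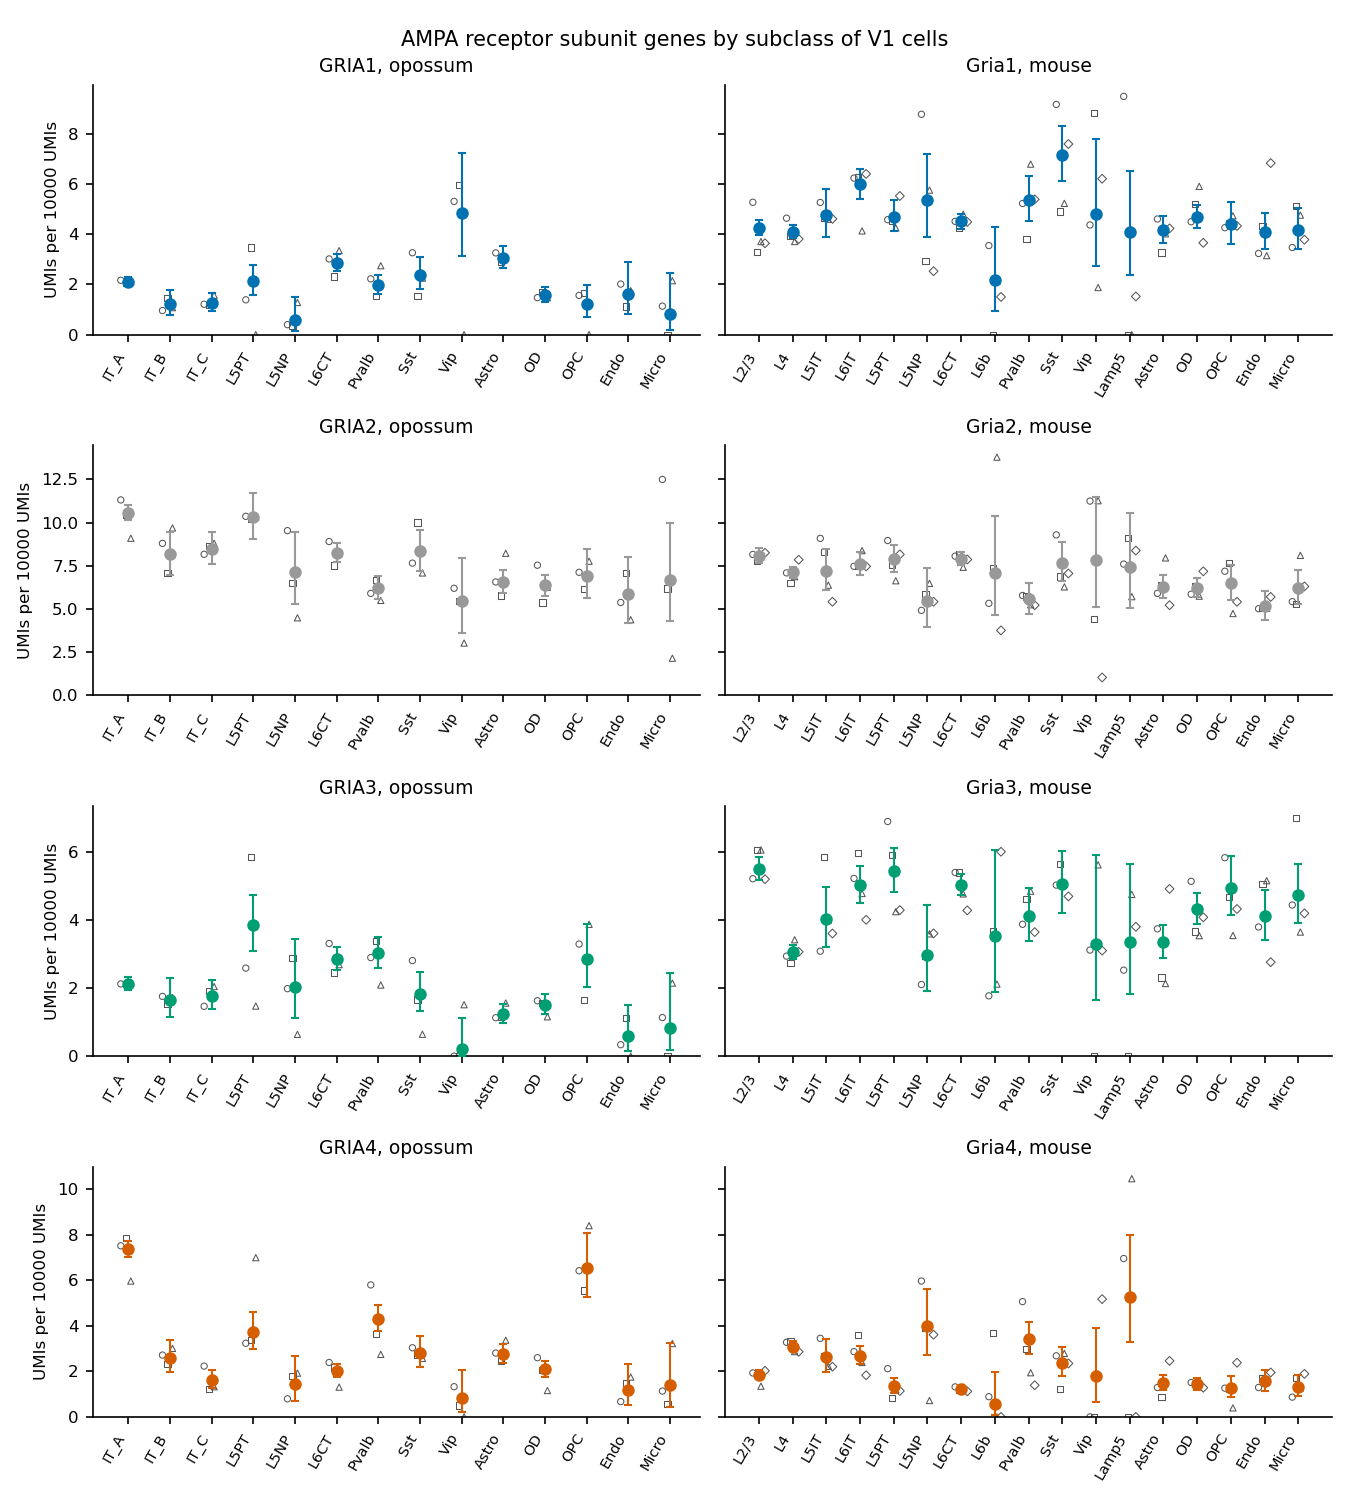
Level of each AMPA receptor subunit gene (UMIs per 10000 UMIs, linear axis from 0) by subclass of V1 cells, opossum on the left and mouse on the right, with exact Poisson intervals at 95% as bars and each V1 region as a small open symbol. GRIA4 stands at 7.38 in opossum IT_A and 6.57 in OPC, while Gria4 in the mouse stands at 3.09 in L4 and 1.84 in L2/3; wide intervals belong to subclasses with few cells.

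Mouse Gria4 was ordered differently among IT neurons. In L2/3, the upper IT subclass, Gria4 was at 1.84 (1.65 to 2.05), with 1.93, 1.84, 1.35 and 2.03 in the 4 regions. In L4, the IT neurons of the thalamic input layer, it was 3.09 (2.88 to 3.32), with 3.28, 3.35, 2.87 and 2.86. L4 was higher than L2/3 in all 4 regions, and the ranges over regions did not overlap. The ratio of L2/3 over L4 was 0.596 (0.523 to 0.678), with 0.589, 0.549, 0.470 and 0.708 by region, which placed Gria4 at 43 from the lowest of 4923 genes. In L5IT Gria4 was at 2.63 (56 UMIs), and the ratio of L2/3 over L5IT was 0.702 (0.528 to 0.948).

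Gria3 ran the opposite way between the same subclasses. It was at 5.52 (5.19 to 5.87) in L2/3, with 5.22, 6.07, 6.07 and 5.21 by region, and at 3.06 (2.85 to 3.29) in L4, with 2.94, 2.75, 3.43 and 3.07. Every region of L2/3 lay above every region of L4. The ratio was 1.80 (1.64 to 1.98), in place 28 from the highest of the 4923 genes. Gria3 and Gria4 were thus the 2 of 4 members past 1.5-fold for L2/3 over L4, beside 3.29% of all genes, and 0 of 4 were past it for L2/3 over L5IT, beside 13.1%. For the latter, Gria4 was past it without region 4, at 0.648, and as the mean of single cells, at 0.557. Gria1 and Gria2 had L2/3 over L4 ratios of 1.04 (0.945 to 1.14) and 1.14 (1.06 to 1.22). In the cells labelled in the first round, L4 had a Gria4 level of 4.55 and a Gria3 level of 2.31, and in those of round 3 the levels were 1.53 and 3.90, so the difference from L2/3 was largest among the most firmly labelled cells. Rounds were set by how uniformly the expression of a cell matched 1 subclass, and the part of Gria3 and Gria4 in that match was not tested.

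Within mouse L4, Gria4 was highest in a small type. The 103 L4 cells labelled L4_C had a Gria4 level of 8.29 (6.96 to 9.81; 136 UMIs), with 9.48, 6.06, 9.13 and 7.88 in the regions, and Gria4 took 41.5% of the UMIs of the 4 genes there. The types L4_A and L4_B had Gria4 levels of 3.39 and 2.77. L4_C cells lay at a median depth of 329 µm, against 256 and 255 µm for L4_A and L4_B, and had a Gria2 level of 5.49, below the 7.11 of L4 as a whole. Their Gria3 level was 2.44 and their Gria1 level 3.78.

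The highest mouse Gria4 level by subclass was 5.29 in Lamp5 interneurons, but it rested on 22 UMIs in 35 cells, with 6.96 and 10.5 in regions 1 and 3 and 0 in regions 2 and 4. L5NP stood at 3.99 (32 UMIs), L6IT at 2.70, Sst at 2.39, Vip at 1.80, endothelial cells at 1.57, astrocytes at 1.48, OD at 1.45, L5PT at 1.36, microglia at 1.33, L6CT at 1.25 (1.10 to 1.41) and L6b at 0.545 on 2 UMIs. The L6CT level of Gria4 lay at or below that of OD, so it did not exceed the level in the cells taken as a reference. In each of the 4 mouse genes, all 16 neighboring pairs in the order of 17 subclasses had overlapping intervals.

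GRIA2, the subunit that limits calcium entry, had the smallest fold between subclasses in both species. Its highest level over its lowest was 1.93-fold in the opossum and 1.56-fold in the mouse. The lowest levels of the other opossum genes, and of Gria1 and Gria4, rested on few UMIs, so their folds are uncertain. In the opossum GRIA2 was highest in IT_A, at 10.6 (11.3, 10.5 and 9.09 by region), and in L5PT, at 10.3 (10.4, 10.2 and 10.3), and lowest in Vip at 5.47. IT_A and L5PT could not be placed in order, since their intervals and their region values overlapped. In OD GRIA2 was at 6.36, which is 55.1% of the UMIs of the 4 genes there. In the mouse Gria2 ran from 8.08 in L2/3 to 5.17 in endothelial cells, with OD at 6.23. As a share, GRIA2 ran from 39.4% in OPC and 40.1% in Pvalb to 68.6% in microglia, the last on 24 UMIs, and Gria2 from 30.1% in Pvalb to 53.1% in L6b.

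GRIA1, the plasticity-linked subunit, was low in opossum IT_B and IT_C. Its levels there were 1.23 and 1.27, against 2.09 over all V1 cells, 2.11 in IT_A and 2.87 (2.54 to 3.22) in L6CT. Astrocytes had 3.07 (2.64 to 3.54), with 3.26, 2.91 and 3.04 in the 3 regions. All 3 astrocyte regions lay above all 3 IT_A regions, which were 2.17, 2.05 and 2.10, while OD stood at 1.57. Vip cells had the highest GRIA1 level, 4.86 (3.12 to 7.24), on 24 UMIs in 38 cells, with 5.31, 5.95 and 0 by region, and L5NP the lowest, 0.585 on 4 UMIs.

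In the mouse, Gria1 was highest in Sst interneurons at 7.17 (6.14 to 8.32), with 9.18, 4.91, 5.23 and 7.60 by region, then in L6IT at 5.99 and Pvalb at 5.37. L2/3 had 4.25, with 5.28, 3.30, 3.71 and 3.64 by region, so Sst and L2/3 overlapped over regions though not in their intervals. L6b had the lowest level, 2.18 on 8 UMIs. Mouse astrocytes had 4.17 and OD 4.69, close to the 4.09 of L4.

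GRIA3 was highest in opossum L5PT at 3.86 (3.11 to 4.74), but its regions were 2.59, 5.86 and 1.47, so that region 2 carried most of it. Pvalb had 3.03, L6CT 2.87 and OPC 2.85, IT_A had 2.13, and OD had 1.51. The lowest level, 0.203, was in Vip and was 1 UMI. Mouse Gria3 was at 5.45 in L5PT, 5.07 in Sst, 5.04 in L6CT and 5.03 in L6IT, next to the 5.52 of L2/3, and its lowest levels were the 2.99 of L5NP and the 3.06 of L4. In OD Gria3 was at 4.33, above its level in L4.

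Cortical depth gave a view that used class labels, and subclass labels only to find the depth axis and its top. Cells with a class label of glutamatergic neurons, 3752 in the opossum and 6245 in the mouse, were split at the middle of the V1 regions, which reach from the start of layer 2/3 down to the end of layer 6. GRIA4 was at 6.83 in the upper cells and 2.38 in the lower cells of the opossum (1740 and 698 UMIs), a ratio of 2.87 (2.63 to 3.14). The ratio was 2.82, 2.94 and 2.93 in the 3 regions, and GRIA4 stood in place 13 from the highest of 5670 genes. Of the 4 members GRIA4 alone was past 1.5-fold, beside 8.84% of all genes in either direction. GRIA2 had a ratio of 1.31 (1.24 to 1.38), with 1.37, 1.35 and 1.13 by region, GRIA1 one of 1.10 (0.976 to 1.24), and GRIA3 one of 0.870 (0.775 to 0.977). Upper cells had fewer UMIs than lower cells, with medians of 1172 and 1565, and with each cell thinned to 300 UMIs the GRIA4 ratio was 2.47 (2.01 to 3.05). Over all V1 cells, whatever their class, it was 2.52.

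In the mouse, Gria4 was at 2.58 in the upper and 1.67 in the lower cells, a ratio of 1.55 (1.41 to 1.70), with 1.48, 1.44, 1.63 and 1.72 in the 4 regions. It stood in place 230 of 7630 genes and was the 1 member of 4 past 1.5-fold, beside 6.26% of all genes. Regions 1 and 2 fell short of 1.5-fold, and thinned to 300 UMIs per cell the ratio was 1.37 (1.10 to 1.71). It was also short of it as the mean of single cells (1.44), in first-round cells (1.41), with the middle of the depth left out (1.36) and with unscaled depth (1.28). Gria1 had a ratio of 0.869 (0.815 to 0.926), with 0.941, 0.823, 0.815 and 0.815 by region, all below 1. Gria3 had one of 0.825, with 0.782, 0.715, 0.993 and 0.874, and Gria2 one of 0.999 (0.952 to 1.05).

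**Figure D3:**
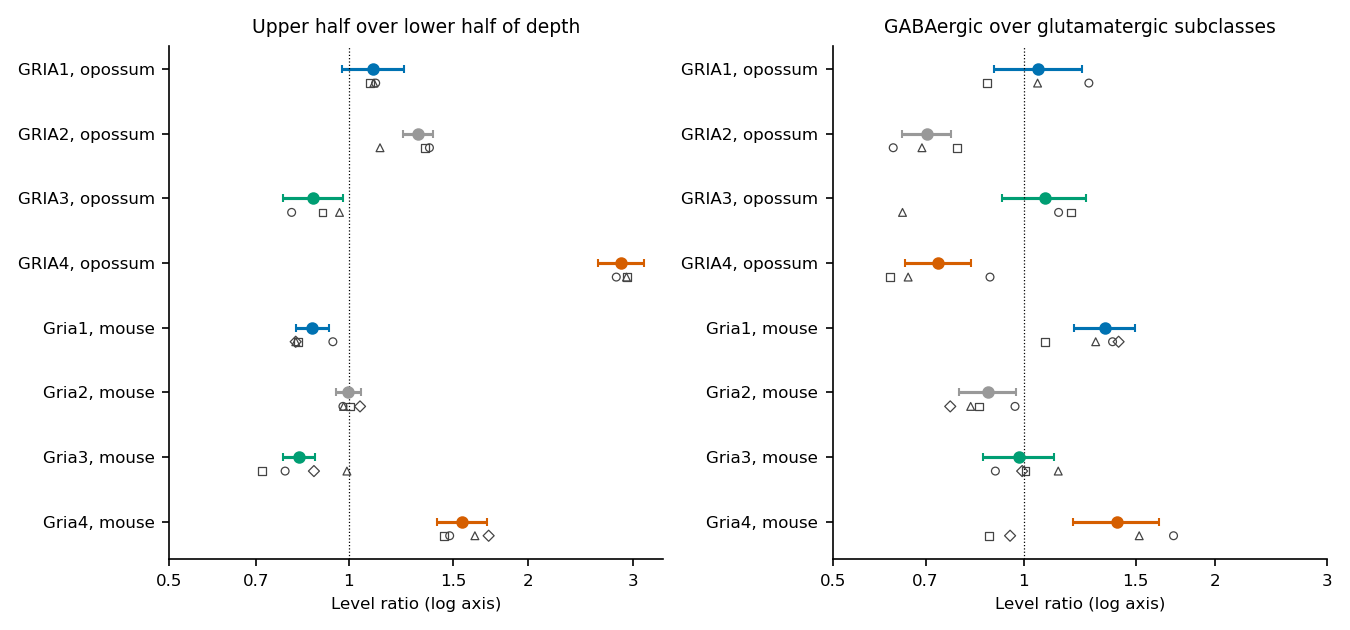
Ratio of each gene's level in the upper over the lower cells by depth, and in GABAergic over glutamatergic subclasses (log axis), for each V1 region (small open symbols) and for pooled counts (large filled points with exact 95% intervals). The 3 opossum regions of GRIA4 lie between 2.82 and 2.94 for depth, and the 4 mouse regions of Gria4 between 1.44 and 1.72.

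In 10 depth bins from the top of layer 2/3 down, GRIA4 was high in the uppermost bins and low below them. Its levels in bins 1 to 4 were 10.7, 8.92, 6.53 and 3.49, and in bins 5 to 10 they lay between 2.07 and 2.77. The bin with the highest level was 5.18-fold above that with the lowest. The GRIA4 share was 38.4% in bin 1 and 13.7% in bin 10, and in bin 1 the regions ran from 8.26 to 11.4, above every region of bins 4 to 10, where the highest was 5.14. GRIA2 was also highest in bin 1, at 13.0, and lowest in bin 5, at 5.73. GRIA1 had its highest level, 3.38, at the bottom in bin 10 and its lowest, 1.25, in bin 7, and GRIA3 its highest, 3.15, in bin 9.

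The mouse profile of Gria4 had its high values in the middle of the cortex and not at the top. Gria4 stood at 1.79 and 1.84 in bins 1 and 2, 2.47 in bin 3, 3.25 and 3.27 in bins 4 and 5, 1.62 in bin 6 and 1.28 in bin 10. Gria3 ran against it, with 5.95 in bin 1, 2.28 (2.00 to 2.58) in bin 4, 3.42 in bin 5 and 4.95 in bin 6. In bin 4 the regions of Gria4 ran from 3.15 to 3.45 and those of Gria3 from 2.13 to 2.60, so that Gria4 was the more captured of the 2 genes there, and in bin 1 every region of Gria3, from 5.40 to 7.05, lay above every region of Gria4, from 1.39 to 2.12. Gria1 and Gria2 varied little, with highest over lowest bins of 1.28-fold and 1.39-fold.

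**Figure D4:**
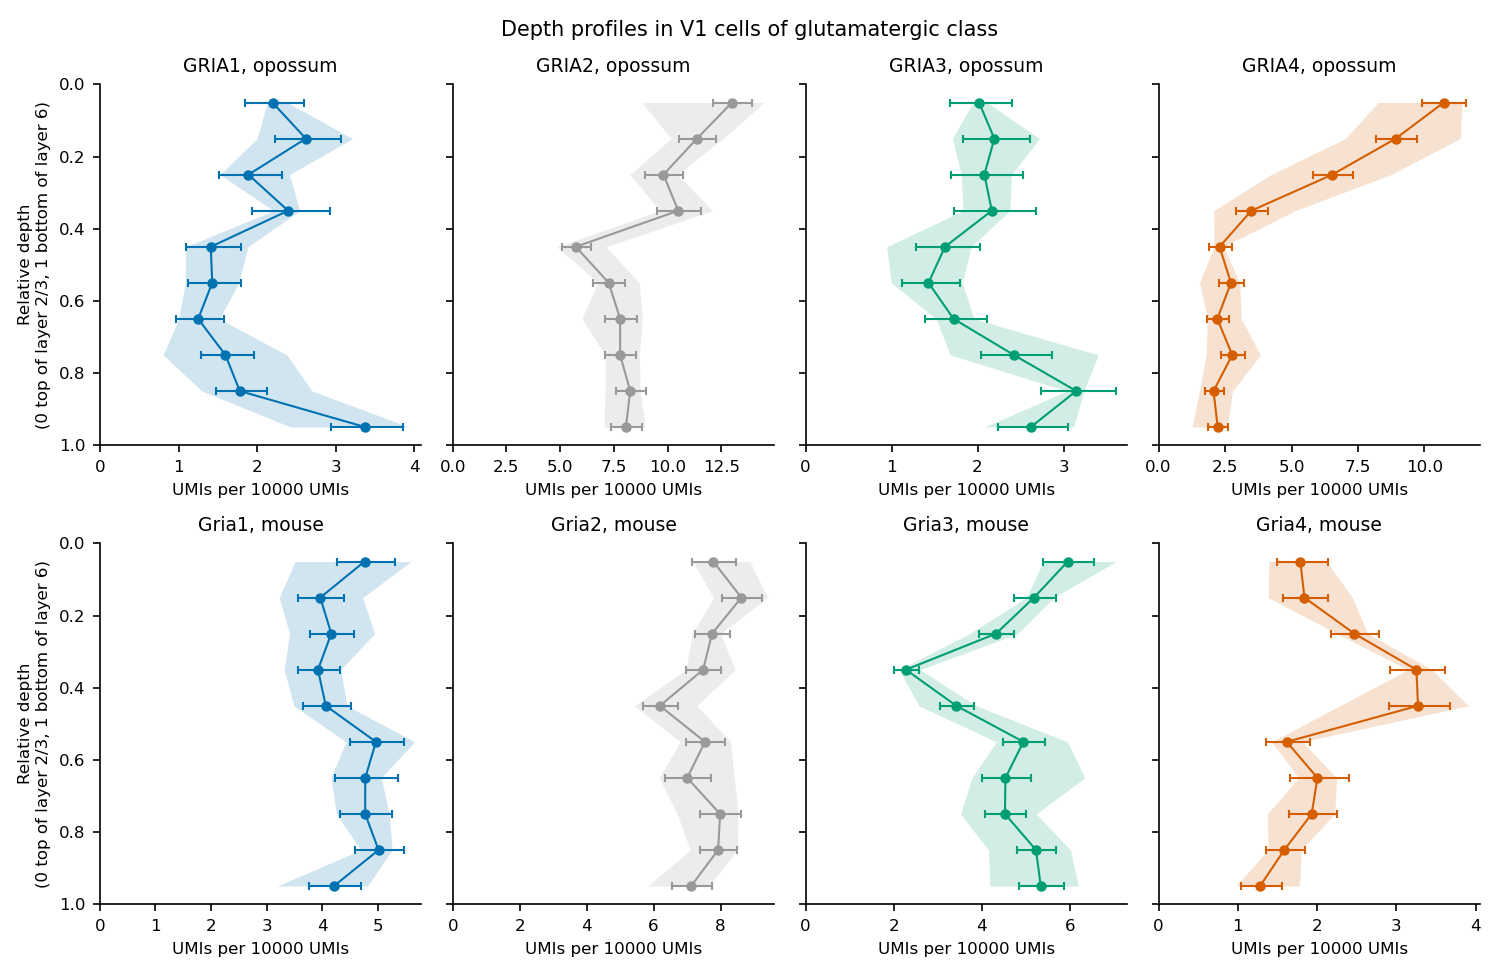
Level (UMIs per 10000 UMIs, horizontal, with a different range in each panel) of the 4 genes in glutamatergic-class V1 cells in 10 bins of relative depth (vertical, top of layer 2/3 at the top), with the pooled level as points with exact 95% Poisson intervals and the range over V1 regions as shading. GRIA4 stands at 10.7 in the uppermost bin and between 2.07 and 2.77 in bins 5 to 10, whereas Gria4 peaks at 3.27 in bin 5 and Gria3 has its lowest level, 2.28, in bin 4.

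The depth difference of GRIA4 was also present inside IT_A. When IT_A cells were split at their own median relative depth, the upper cells had a GRIA4 level of 10.3 and the lower cells one of 4.19, a ratio of 2.46 (2.21 to 2.74), with 1.84, 3.34 and 2.95 by region. In the same cells GRIA2 had a ratio of 1.48 (1.37 to 1.61), GRIA1 one of 1.40 (1.17 to 1.69) and GRIA3 one of 0.989 (0.827 to 1.18). In other opossum subclasses the GRIA4 ratio was 0.906 (0.514 to 1.55) in IT_C, 0.886 (0.662 to 1.18) in L6CT, 0.961 (0.736 to 1.25) in Pvalb, 1.10 (0.778 to 1.55) in OD and 1.57 (1.14 to 2.16) in astrocytes, with 1.94, 1.61 and 1.03 by region. Had every cell carried the mean GRIA4 level of its subclass, the ratio over depth would have been 1.95 in the 3544 glutamatergic-class cells with a subclass, against 2.93 measured in them.

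In mouse L4 the split by depth gave a Gria4 ratio of 0.810 (0.699 to 0.936), with 0.779, 0.572, 0.955 and 0.925 by region, all below 1, so the deeper L4 cells had more. Gria2 in L4 ran the other way at 1.25 (1.14 to 1.37), with 1.41, 1.26, 1.17 and 1.11. In L2/3, the Gria4 ratio was 1.02 (0.817 to 1.26). In L6IT it was 0.641 (0.464 to 0.879), with 0.619, 0.543, 0.545 and 1.31 by region. The subclass levels alone gave 1.39 for Gria4 over depth in the mouse, against 1.58 measured in 5604 cells. For GRIA1 the ratio in opossum L6CT was 0.686 (0.533 to 0.878), with 0.404, 0.990 and 0.800 by region, so region 1 carried most of it. In L5PT it was 0.360 (0.161 to 0.733), on 10 UMIs in the upper and 40 in the lower cells.

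GABAergic neurons are known for AMPA receptors poor in GluA2. The GRIA2 level was 6.78 in the 563 opossum cells of GABAergic subclasses and 9.64 in the 2706 cells of glutamatergic subclasses. The ratio was 0.703 (0.643 to 0.768), with 0.623, 0.784 and 0.691 in the regions, all below 1. Many of the former held a glutamatergic class label, among them 142 of 354 Pvalb and 83 of 171 Sst cells. In cells with matching class and subclass labels the GRIA2 ratio was 0.757. Gria2 in the mouse was at 6.68 in 403 and 7.62 in 5557 cells, a ratio of 0.877 (0.790 to 0.971), with 0.968, 0.851, 0.825 and 0.766. With matching labels the Gria2 ratio was 0.826. As a share, GRIA2 took 50.3% in glutamatergic and 44.5% in GABAergic subclasses, and Gria2 40.7% and 33.2%.

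GRIA4 had a GABAergic over glutamatergic ratio of 0.734 (0.649 to 0.827), with 0.884, 0.616 and 0.657 by region, all below 1. In cells with matching class and subclass labels it was 0.924. The glutamatergic level of 5.03 included IT_A at 7.38. Pvalb, at 4.32, stood above the other glutamatergic subclasses, though its interval overlapped that of L5PT at 3.73. Gria4 had a ratio of 1.40 (1.19 to 1.63), with 1.72, 0.881, 1.52 and 0.951, so 2 regions lay on each side of 1. Thinned to 300 UMIs per cell, the Gria4 ratio was 0.993 (0.634 to 1.49) on 25 GABAergic UMIs. Gria1 had a ratio of 1.34 (1.20 to 1.498), with 1.38, 1.08, 1.30 and 1.41, all above 1, whereas GRIA1 had 1.05 (0.896 to 1.23). GRIA3 and Gria3 had ratios of 1.08 (0.925 to 1.25) and 0.982 (0.863 to 1.11). None of the 4 genes was past 1.5-fold in this comparison in either species (0 of 4 in each), beside 13.0% of 5468 genes in the opossum and 11.9% of 7510 in the mouse. That count depended on the cells used. In cells labelled in the first round, GRIA2 at 0.597, Gria1 at 1.94 and Gria4 at 1.88 were past it. Without region 2 of the opossum GRIA2 was at 0.643, without its region 1 GRIA4 was at 0.636, and without region 4 of the mouse Gria4 was at 1.52. Thinned cells gave 0.656 for GRIA2 and 0.657 for GRIA4, and the mean of single cells 0.617 for GRIA4.

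AMPA receptors leave the endoplasmic reticulum and reach synapses with auxiliary subunits, scaffolds and secreted clustering proteins. Of 31 such partner genes, 12 were measured with at least 200 UMIs in the opossum, where 15 had no feature of that symbol and 4 were under the minimum, and 27 were measured in the mouse. Over depth, 5 of the 12 opossum genes were past 1.5-fold, beside 8.84% of all genes, with a median ratio of 1.12 beside 0.976 over all genes. CACNG3, a transmembrane auxiliary subunit, had a ratio of 1.73 (1.52 to 1.96), SYNDIG1, a synapse differentiation protein, one of 1.63, and NPTX2, a secreted pentraxin that clusters AMPA receptors, one of 2.11 (1.70 to 2.63). CNIH3, a cornichon auxiliary subunit, and NPTX1, another pentraxin, were lower in the upper cells, at 0.639 (0.522 to 0.780) and 0.588 (0.538 to 0.641). The regions of CNIH3 were at 0.478, 0.611 and 1.10, so that region 3 lay on the other side of 1. Those of SYNDIG1 were at 1.67, 1.97 and 0.915, again with region 3 on the other side. GSG1L, an auxiliary subunit under the minimum with 141 and 45 UMIs, had a ratio of 3.61 (2.56 to 5.16).

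In the mouse, 3 of 27 partner genes were past 1.5-fold over depth, beside 6.26% of all genes, all higher in the upper cells, with a median ratio of 1.13 beside 0.992 over all genes. They were Gsg1l at 1.62 (1.35 to 1.96), Cnih3 at 1.56 (1.30 to 1.88) and Nptxr, the membrane-bound pentraxin receptor, at 1.54 (1.41 to 1.68). Between GABAergic and glutamatergic subclasses, 3 of 12 opossum genes were past 1.5-fold, beside 13.0% of all genes, namely CACNG2 (stargazin) at 1.62 (1.39 to 1.88), CACNG3 at 0.620 and NPTX2 at 0.283 on 18 GABAergic UMIs. In the mouse it was 6 of 27, beside 11.9%, with Grip1, a scaffold that binds the tails of GluA2 and GluA3, at 6.62 (5.75 to 7.62) and the auxiliary subunit Shisa6 at 1.79, and with Gsg1l at 0.666, Akap5 at 0.655, Dlg1 at 0.628 and Nptx2 at 0.473. Adarb1, which encodes the enzyme that edits the GluA2 RNA, was measured in the mouse alone and had ratios of 1.36 (1.18 to 1.57) over depth and 1.30 (1.00 to 1.65) for GABAergic over glutamatergic subclasses.

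The genes whose levels over subclasses were most like those of each member were found by Pearson's correlation of log2(level + 0.1), over 14 opossum and 17 mouse subclasses that share a section each. For GRIA4 they were ENSMODG00000008897 (r = 0.844), GOLIM4 (0.838) and MXD1 (0.817), and for Gria4 Rtl8a (0.841), Fam76b (0.838) and 9330162G02Rik (0.831). For GRIA1 they were HLTF, BMI1 and PLTP (0.832 to 0.857), for GRIA2 KCNQ5, DGKI and ST7 (0.824 to 0.839), and for GRIA3 TASP1, ABCB9 and GRK3 (0.897 to 0.916). For Gria1 they were Abhd12, which is also among the partner genes, Spon1 and Lrpprc (0.847 to 0.891), for Gria2 Papola, Anapc2 and Sgcz (0.721 to 0.761), and for Gria3 Strada, Gm12251 and AA474408 (0.740 to 0.749). Subclasses with few UMIs weigh as much as large ones here, and with Spearman's correlation at most 1 of the 3 genes in each list was the same. Among the members, GRIA3 and GRIA4 had r = 0.731 in the opossum, and Gria3 and Gria4 had r = -0.316 in the mouse.

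Outside the V1 regions, the 74531 opossum cells had a GRIA1 level of 3.19 against 2.09 in V1, a ratio of 1.53 (1.45 to 1.61), and the 110881 mouse cells a Gria1 level of 7.11 against 4.58, a ratio of 1.55 (1.51 to 1.59). GRIA1 was thus the member that stood highest outside V1 relative to V1 in both species. In 753 opossum tiles of 200 µm with 50 cells or more, GRIA1 had a median level of 2.23 and a highest of 26.4 (307 UMIs), and in 934 mouse tiles Gria1 had a median of 5.62 and a highest of 17.4. GRIA4 was at 3.60 outside V1, so that V1 was 1.18-fold (1.14 to 1.23) higher, and Gria4 was at 1.58, with V1 1.27-fold (1.22 to 1.32) higher. GRIA3 and GRIA2 were 1.48-fold and 1.35-fold higher in V1, while Gria3 was 1.10-fold higher in V1 and Gria2 stood at 7.39 outside and 7.22 inside. The labels name no area outside V1, so no area is named here.

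**Figure D5:**
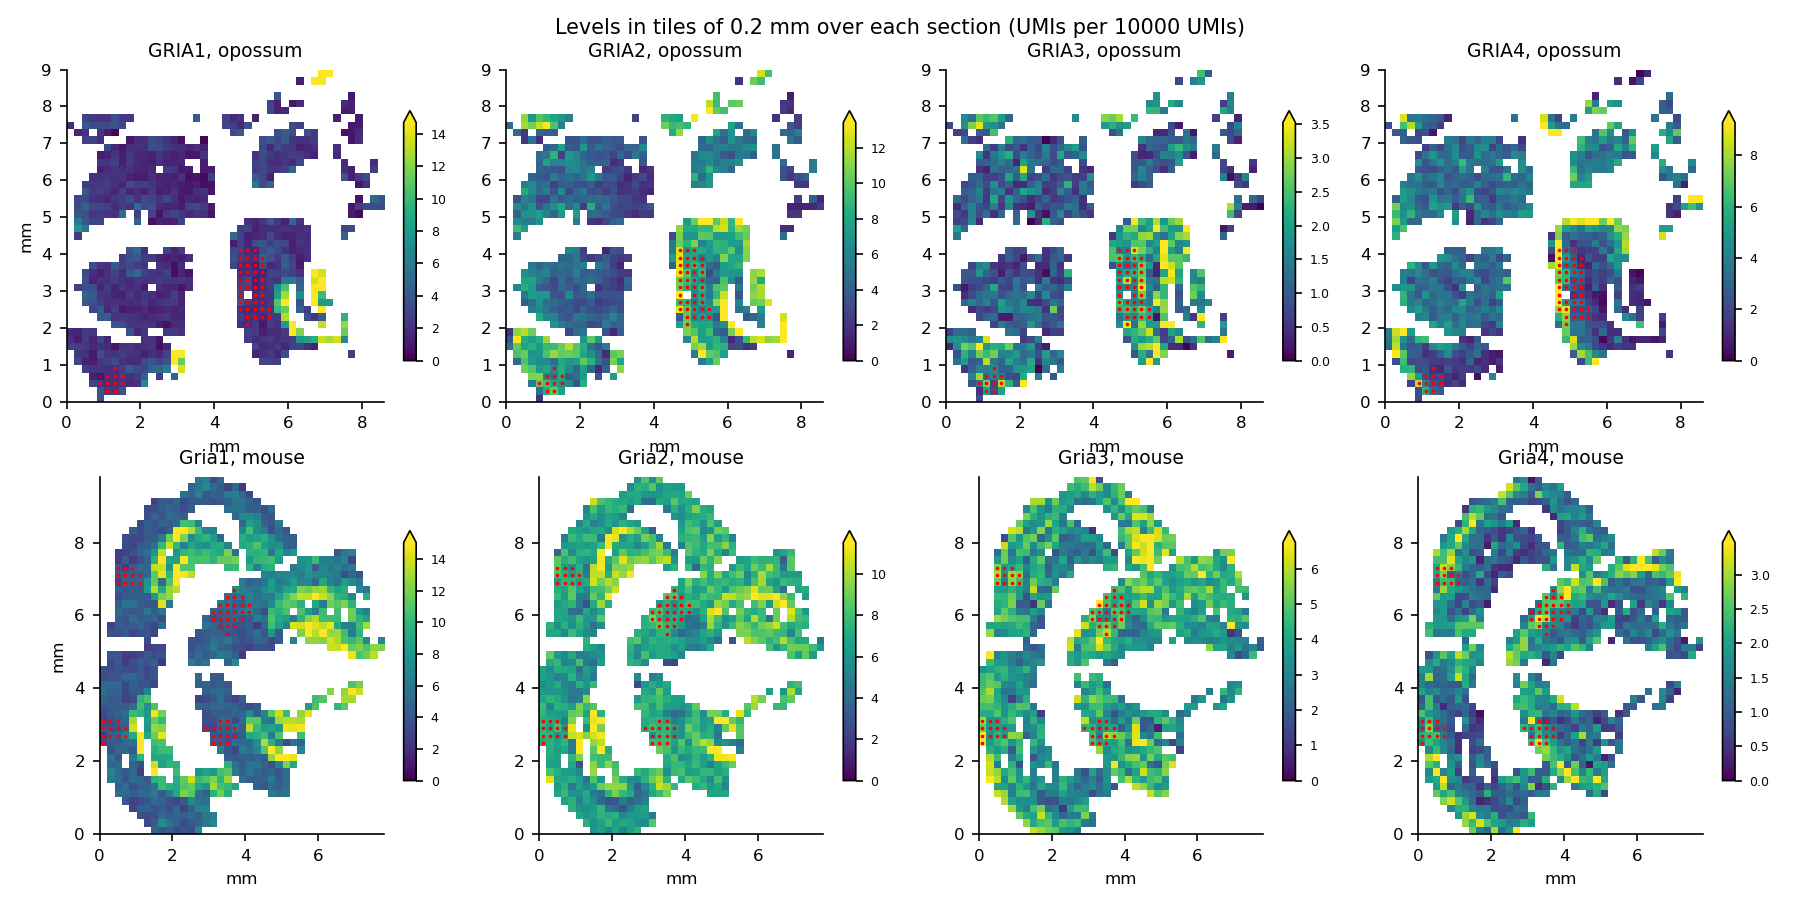
Maps of the 2 sections in tiles of 200 µm (position in mm on both axes), coloured by the level of each of the 4 genes in UMIs per 10000 UMIs, opossum above and mouse below, with each colour scale ending at percentile 98 of its panel and red dots on tiles made up mostly of V1 cells. GRIA1 reaches 26.4 in a tile outside V1, against a median of 2.23 over all tiles.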

How the data were processed

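Stereo-seq of 1 opossum and 1 mouse section was used. Reads were processed by the authors in SAW, the assay's own pipeline, against GRCm39 for the mouse and a custom genome with lengthened 3′ gene ends for the opossum, and raw UMI counts per gene and segmented cell were deposited. The extension bears on which 3′ reads reach a gene, so levels of a gene in the 2 species are not on 1 scale. Per the deposited labels, which are names and not values, each cell had a V1 region, a pass of the authors' filter (50 genes and 100 UMIs), class, subclass, label round and cluster or type.

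Counts were summed over the cells of a subclass (25 cells or more), region, depth group or bin and divided by their total. Depth in a region was measured along the side of its smallest enclosing rectangle on which the medians of IT_A or L2/3 (top) and L6CT (bottom) lay furthest apart, scaled to the tallest region, and 2 spatial units were taken as 1 µm. Poisson, Clopper-Pearson and conditional ratio intervals were at 95%. Ratios were computed for all genes with 200 UMIs or more in the cells compared, and a ratio past 1.5-fold in either direction was counted. No test was run, since each species is 1 animal.

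The members, the partner and marker lists and the comparisons were chosen with earlier results of these data known, among them levels and the depth profile of GRIA4. Named were the 4 members, the partner and marker genes, and the 3 genes most like each member. Counts were also simulated with Poisson error alone, without any spread between cells or regions. In them, 100% of genes changed 2-fold over depth passed 1.5-fold. So did 0.0365% of 5479 unchanged genes in the opossum and 0.0671% of 7453 in the mouse. These shares therefore give no rate of false calls for the real data. Alternatives were a stricter cell filter, thinning to 300 UMIs, other weights, denominators, depth groups and label rounds, and each region left out. Computation used numpy 2.4.6, pandas 2.3.3 and scipy 1.17.1 under Python 3.11.15, and plots matplotlib 3.10.9.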

Additional observations from a re-analysis of the deposited data

Results flagged for a closer look

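Among the IT subclasses compared, the upper one had the highest GRIA4 level in the opossum and the lowest Gria4 level in the mouse. The paper found that IT_A and IT_C corresponded poorly to mouse IT subclasses, so the pairs here are by position in the cortex. The level ratio of the upper IT subclass over the deep one was 4.53 in the opossum (IT_A over IT_C, above 1 in 3 of 3 regions). In the mouse it was 0.702 (0.528 to 0.948) for L2/3 over L5IT, on 56 UMIs in L5IT and below 1 in 4 of 4 regions. The ratio over the middle IT subclass was 2.85 in the opossum (IT_A over IT_B, above 1 in 3 of 3 regions) and 0.596 in the mouse (L2/3 over L4, below 1 in 4 of 4 regions). By depth, GRIA4 and Gria4 were both higher in the upper cells, with ratios of 2.87 and 1.55. GRIA1 had an upper over lower depth ratio of 1.10, above 1 in 3 of 3 opossum regions, but its interval (0.976 to 1.24) held 1. Gria1 had one of 0.869 (0.815 to 0.926), below 1 in 4 of 4 mouse regions. These differences between species were not tested, since each species is 1 animal and the regions of a section are not replicates.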

How the results depend on the processing

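Under the alternatives, 303 recomputed values moved by no more than the larger of the spread over regions and the counting interval's half-width, or kept their count within 1.5 times, and 35 moved further. Among ratios whose interval did not hold 1, 2 changed side, both with thinning to 300 UMIs per cell, where few UMIs remain. The GRIA3 depth ratio in the opossum was 1.13 (0.855 to 1.49) and the Gria4 GABAergic over glutamatergic ratio in the mouse 0.993. As the mean of the levels of single cells, an alternative chosen after seeing the data, these were 0.813 and 1.31, on the side first given. For depth ratios, thinning gave 1.30 for GRIA1, 2.47 for GRIA4, 0.739 for Gria1 and 1.37 for Gria4. GRIA4 was at 2.53 as the mean of single cells, 3.76 with the middle of the depth left out and 2.52 over all V1 cells, and Gria4 at 1.36 with the middle left out and 1.28 with unscaled depth. Gria2 was at 0.944 in first-round cells and 1.07 with unscaled depth. For GABAergic over glutamatergic subclasses, first-round cells gave 0.597 for GRIA2, 1.94 for Gria1, 0.737 for Gria2 and 1.26 for Gria3, and cells with matching class and subclass labels gave 0.924 for GRIA4. Between subclasses, first-round cells gave 14.4 for GRIA4 in IT_A over IT_C and 5.54 over IT_B, and 1.93 for GRIA3 in IT_A over IT_B. They gave 2.54 for Gria3 and 0.454 for Gria4 in L2/3 over L4. As the mean of the levels of single cells, GRIA4 in IT_A over IT_B moved down to 2.06. The cause of these moves was not tested. All 140 values with 1 region left out moved by no more than that spread. Some ratios whose interval held 1 crossed it. GRIA1 (GABAergic over glutamatergic) was 0.922 without region 1 and 0.919 in first-round cells, GRIA3 0.986 without region 2 and 0.953 as the mean of regions, and Gria3 1.04 without region 1. Gria2 over depth, at 0.999, crossed it without region 1 and without region 3, and Gria1 in L2/3 over L4 0.932 without region 1. In first-round cells Gria2 in L2/3 over L5IT was 0.939 and GRIA3 in IT_A over IT_C 0.996. Leaving mitochondrial genes out of the total was not run for the opossum, whose gene symbols mark none. No paired analysis was possible because each species is 1 sample.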
